A study of Mus musculus with 32 samples.

Results

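The genes described are 40 named genes of the peroxisome, out of 35523 genes counted in mouse liver. They were chosen by name with earlier results of these data known. Their counts beside those of all genes therefore do not test the list. They comprise 23 enzymes of the peroxisomal matrix, 2 transporters of the ABCD family, 2 membrane proteins (Pxmp2 and Pxmp4), and 13 peroxins, the proteins encoded by Pex genes. All 40 were found in the files by symbol. Peroxisomes shorten fatty acids that are too long or too branched for mitochondria. An acyl-CoA enters through an ABCD transporter and is oxidized by an acyl-CoA oxidase, which yields hydrogen peroxide. A multifunctional enzyme and a thiolase complete the cycle, and catalase removes the peroxide. In rodent liver many of these enzymes are targets of PPARα, a nuclear receptor activated by fatty acids. The peroxins build the organelle: they insert its membrane proteins, import its enzymes, and divide it.

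Liver RNA came from 32 mice in 8 groups of 4. The groups were Nudt7-/- (KO) and wild-type (WT) males and females, fed either a Western diet (WD, 41% of energy from fat, 0.2% cholesterol) or a low-fat control diet (CD, 10% of energy from fat, 0% cholesterol). The diets were given from 6 weeks of age to harvest at 17 to 20 weeks, and the strain is labelled C57BL/6J. The KO was whole-body: exons of Nudt7, which encodes a CoA-degrading enzyme of the peroxisome, were removed by CRISPR/Cas9 in FVB zygotes. The line came from a single mosaic founder and was backcrossed to C57BL/6J, with WT littermates as controls. Whether the livers were taken fed or fasted is not given in the sources used here. Levels are given as CPM, the estimated counts summed over the transcripts of a gene and divided by library size after TMM scaling.

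Libraries held between 10140048 and 15825078 counts. Nudt7 was lower in all 16 KO libraries than in the WT libraries of the same sex and diet. It averaged 86.3 CPM in KO and 511 CPM in WT males on the WD, 141 and 487 CPM on the CD, 36.5 CPM in KO and 131 CPM in WT females on the WD, and 32.6 and 179 CPM on the CD. These reads were summed over all transcripts of Nudt7, so they do not measure intact transcript. The 8 hepatocyte markers summed to 51184 CPM or more in all libraries, whereas kidney tubule markers stayed at or under 0.105 CPM. Markers of pancreatic acinar cells stood apart in 4 female libraries. They summed to 6557 and 1369 CPM in WT females on the CD (replicates 2 and 4), 3083 CPM in KO females on the CD (replicate 3), and 494 CPM in WT females on the WD (replicate 4), against a median of 15.9 CPM over all libraries. The female comparisons were therefore also made without them. Other marker lists moved with the diet. The 8 adipocyte markers summed to 57.0–128 CPM on the WD, against 14.8–18.3 CPM on the CD, in KO males, and to 29.8–84.2 CPM on the WD, against 17.7–25.2 CPM on the CD, in WT males. These sums rest on part of the list. In each male genotype, 4 markers had 10 counts or more in all WD libraries and 2 in all CD libraries. The hepatocyte markers summed to 51184–74214 CPM on the WD, against 74769–104725 CPM on the CD, in KO males, and to 64303–72023 CPM on the WD, against 82473–93529.7 CPM on the CD, in WT males. In females the hepatocyte markers summed to 66419–86854 CPM on the WD, against 82562–107280.0 CPM on the CD, in KO mice, and to 69761–78881 CPM on the WD, against 84568–103305 CPM on the CD, in WT mice, where the diets did not overlap. The 8 markers of Kupffer cells and macrophages summed to 373–620.4 CPM on the WD, against 266–394 CPM on the CD, in KO females, and to 355–613 CPM on the WD, against 319.7–355 CPM on the CD, in WT females. The part of these lists in the diet results was not tested. In whole liver, fewer cells of a type and less RNA per cell cannot be told apart.

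The starts of 33 of the 40 genes were matched by symbol in RefSeq windows of GRCm38.p6. The 250 bases before the start are shown for 3 β-oxidation genes whose transcripts rose on the WD in both male genotypes: Acaa1b (chr9:119157094-119157343), Ehhadh (chr16:21787835-21788084), and Acox2 (chr14:8259020-8259269), all on the minus strand and written 5′ to 3′. Capitals mark a match to a DR1 element, the direct repeat that PPARα binds together with RXR.
Acaa1b: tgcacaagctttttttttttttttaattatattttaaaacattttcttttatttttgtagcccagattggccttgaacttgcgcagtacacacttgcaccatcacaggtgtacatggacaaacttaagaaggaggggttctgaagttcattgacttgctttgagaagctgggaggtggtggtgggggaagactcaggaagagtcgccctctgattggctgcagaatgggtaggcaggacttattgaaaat
Ehhadh: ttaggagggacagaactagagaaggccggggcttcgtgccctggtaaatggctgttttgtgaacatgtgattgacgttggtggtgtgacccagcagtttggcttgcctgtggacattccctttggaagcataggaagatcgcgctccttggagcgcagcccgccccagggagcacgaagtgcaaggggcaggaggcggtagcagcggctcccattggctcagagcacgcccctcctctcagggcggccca
Acox2: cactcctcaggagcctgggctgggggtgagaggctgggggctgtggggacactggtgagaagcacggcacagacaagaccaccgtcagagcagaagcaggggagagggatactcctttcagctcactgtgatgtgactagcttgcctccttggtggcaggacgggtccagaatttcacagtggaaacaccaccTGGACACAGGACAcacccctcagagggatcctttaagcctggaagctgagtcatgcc

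Both strands were searched. The strict pattern, a repeat of AGGTCA with 1 base between the copies and up to 2 mismatches, was found in 1 of the 33 genes (Cat) and in 3.24% of all 32851 windows. The relaxed pattern, the same repeat of AGGNCA (N being any base) with up to 1 mismatch, was found in 3 of 33 (Acox2, Cat, and Pex11g) and in 3.98% of all windows; the match in Cat is the same for both. The capitals in Acox2 begin 57 bases before the start used here and 237 bases before another RefSeq start. In the annotation used for counting, Acox2 reaches position 8259353, so the window shown lies inside the annotated gene. Acaa1b and Ehhadh have no such letters in these windows, which says nothing of sites elsewhere.

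The members differed in level by about 3 orders of magnitude. Levels of different genes are compared in TPM, which account for transcript length. The highest median over the 32 libraries was that of Scp2 at 2000.0 TPM, the gene of a thiolase and of sterol carrier protein 2. It was followed by catalase (Cat, 1206 TPM), phytanoyl-CoA hydroxylase (Phyh, 1121 TPM), urate oxidase (Uox, 1111 TPM), and Acaa1b (677 TPM), a thiolase. The lowest were Eci3, an enoyl-CoA isomerase, at 1.77 TPM, Pex10 at 5.29 TPM, and Abcd2 at 8.35 TPM. The other transporter, Abcd3 (PMP70), stood at 238 TPM. Peroxins were low throughout: their median level was 35.2 TPM, from 5.29 TPM for Pex10 to 75.3 TPM for Pex19, whereas the 23 enzymes had a median of 164 TPM.

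The 23 enzymes together took up 10815 ± 721 TPM on the WD and 9077 ± 189 TPM on the CD in KO males (mean ± SD, n = 4). In WT males the sums were 10744 ± 942 TPM on the WD and 8492 ± 259 TPM on the CD. Each male WD library lay above each male CD library of its genotype. Females had 9393 ± 485 TPM on the WD and 8222 ± 172 TPM on the CD in KO mice, and 9457 ± 503.9 TPM on the WD and 8021 ± 1162 TPM on the CD in WT mice. The groups were separate in KO females and overlapped in WT females. The 13 peroxins summed to 454–557 TPM on average in the 8 groups. In females they summed to 532 ± 16.7 TPM on the WD and 496 ± 11.2 TPM on the CD in KO mice, and to 557 ± 38.1 TPM on the WD and 497 ± 19.5 TPM on the CD in WT mice, with no overlap between diets in either. TPM sums are not TMM-scaled. In the TMM-scaled diet comparisons below, 0 of the 13 peroxins were called in females, where 0.125% (KO) and 0.0785% (WT) of all genes were called. At these shares a count of 0 says little. The median log2 fold change of the peroxins there was 0.06 in KO and 7.57e-06 in WT females. In males the sums were 521 ± 37.9 TPM on the WD and 462 ± 33.1 TPM on the CD in KO mice, and 475 ± 50.1 TPM on the WD and 454 ± 22.1 TPM on the CD in WT mice, with overlap in both. The enzymes exceeded them 22.7 ± 1.70 times in WT males on the WD, against 18.7 ± 0.882 times on the CD, with no overlap. In KO males the ratio was 20.8 ± 1.13 on the WD, against 19.7 ± 1.17 on the CD, and the groups overlapped, as they did in females.

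**Figure D1:**
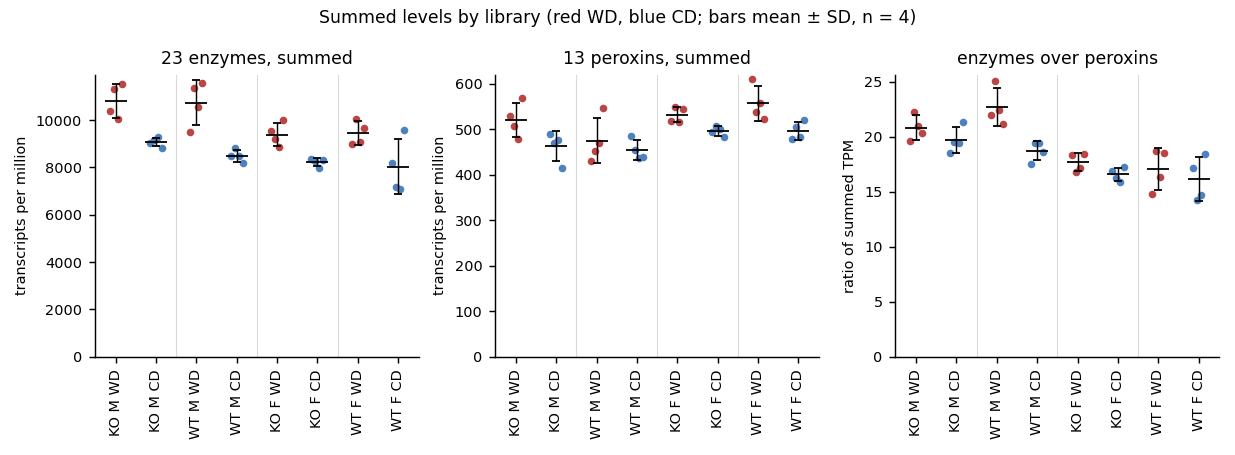
Summed level of the 23 enzymes, summed level of the 13 peroxins (both in TPM), and the ratio of the sums, for each library (points) with mean ± SD of 4 mice, WD in red and CD in blue (M, males; F, females). The enzyme sums of males average 10815 TPM on the WD and 9077 TPM on the CD in KO mice, and 10744 TPM on the WD and 8492 TPM on the CD in WT mice.

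To determine how the diet affected these genes, WD and CD were compared within each sex and genotype. In WT males 13 of the 39 members tested were called at an adjusted p under 0.05 (edgeR quasi-likelihood test, Benjamini–Hochberg over all genes), 12 higher and 1 lower on the WD. Of all genes tested there, 13.7% were called in either direction and 6.94% were called higher. In KO males 8 of 39 members were called, all higher, where 2.60% of all genes were called and 1.64% were called higher. Of the members called, 6 were shared by WT and KO males: Acaa1b, Ehhadh, Eci2, Acaa1a, Hsd17b4, and Acox2. The comparisons use different mice. Enzymes made up 12 of the 13 calls in WT males and 7 of the 8 in KO males, out of 22 enzymes tested. Peroxins made up 1 call in each, out of 13. The median log2 fold change of the enzymes was 0.40 in WT males and 0.17 in KO males, that of the peroxins was −0.05 and 0.07, and that of all genes was 0.01 in each. Diets without overlap were common: in WT males 9.37% of all genes were higher in this way and 10.7% lower. In KO males these shares were 5.26% and 5.69%. Of 39 members, 12 were higher without overlap and 1 lower in WT males, and 10 and 1 in KO males.

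The counts depended on the fit and on single libraries. With the change in mean transcript length entered as an offset, edgeR called 7 members in WT males, where Acox2, Crot, Hacl1, Pex3, Phyh, and Scp2 lost their calls, whereas DESeq2 called 13, without Pex3 and with Abcd2. In KO males the count was 2 without CD replicate 1 or CD replicate 4, 3 without CD replicate 2 or 3 or WD replicate 3 or 4, and 5 without WD replicate 2. By gene, the KO male calls of Acox2 and Hsd17b4 were lost when any of 7 libraries was left out. Those of Ehhadh and Eci2 were lost with any of 6, and those of Acaa1a and Ech1 with any of 5. Only Acaa1b and Pex11a kept their calls in all these fits. With length offsets in edgeR, Acox2 and Eci2 lost their KO male calls (adjusted p = 0.0601 and 0.0515), and Hacl1 gained a call (adjusted p = 0.0221). In KO males DESeq2 with length offsets called 11 members, and so did edgeR in the model of all 32 libraries. Both lost none and added Decr2, Hacl1, and Lonp2.

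Among enzymes of the β-oxidation cycle, the thiolase Acaa1b had the largest log2 fold change of all members in males. In KO males Acaa1b measured 919, 1006, 761, and 1152 CPM on the WD, against 347, 488, 312, and 325 on the CD. The WT males had 622, 1059.5, 739.7, and 1325 CPM on the WD, against 397, 245, 351, and 316 on the CD. In both genotypes each WD library was above each CD library. The log2 fold change was 1.40 ± 0.18 (SE) in KO males (adjusted p = 0.00298, edgeR) and 1.53 ± 0.25 in WT males (adjusted p = 0.00716). Its neighbour on chromosome 9, Acaa1a, encodes a near-identical thiolase. In KO males Acaa1a measured 121, 122, 148, and 206 CPM on the WD, against 81.1, 87.2, 82.2, and 72.5 on the CD. Acaa1a measured 101, 149.5, 127, and 139.9 CPM in WT males on the WD, against 82.8, 75.6, 88.6, and 87.7 on the CD. These groups did not overlap either, and the log2 fold change was 0.90 in KO males (adjusted p = 0.0192) and 0.64 in WT males (adjusted p = 0.00743). The main transcripts of these genes share 34.0% (Acaa1a) and 35.5% (Acaa1b) of their stretches of 50 bases, so the split between them is an estimate. Their sum does not depend on it: in KO males it was 1039.5, 1128, 909, and 1358 CPM on the WD, against 428, 575, 395, and 398 on the CD, and in WT males 723, 1209, 866, and 1465 on the WD, against 479, 321, 440.1, and 404 on the CD. Exons of Acaa1a overlap Myd88 on the opposite strand, whose counts came to 13% of those of Acaa1a.

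Both multifunctional enzymes, which carry out the hydration and dehydrogenation steps, were higher on the WD. Ehhadh, the L-bifunctional enzyme, had larger log2 fold changes than Hsd17b4, the D-bifunctional enzyme that also acts on branched-chain substrates and bile acid precursors. In KO males Ehhadh measured 280.1, 424, 337, and 578 CPM on the WD, against 208, 221, 144, and 192 on the CD. In WT males it measured 274, 516, 296, and 474 CPM on the WD, against 197, 174, 208, and 171 on the CD. No WD library of Ehhadh fell within the CD range, with log2 fold changes of 1.10 ± 0.22 in KO males (adjusted p = 0.0285) and 1.07 ± 0.20 in WT males (adjusted p = 0.0109). In KO males Hsd17b4 measured 454, 608, 472, and 515 CPM on the WD, against 351, 363, 332, and 340.2 on the CD. The WT males had 496, 514, 434, and 493 CPM on the WD, against 364, 343, 375, and 339 on the CD. Here the WD libraries were also all above the CD libraries, by 0.58 and 0.46 on the log2 scale in KO and WT males (adjusted p = 0.0386 and 0.0111).

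Of the 2 acyl-CoA oxidases among the members, Acox2, which oxidizes branched-chain substrates and bile acid intermediates, rose, and Acox3 did not pass the test, with log2 fold changes of 0.08 in KO males and 0.08 in WT males. In KO males Acox2 measured 161, 227, 201, and 187 CPM on the WD, against 125, 136, 141, and 135 on the CD. Acox2 measured 211, 185, 191, and 197 CPM in WT males on the WD, against 138, 155, 164, and 133 on the CD. Its groups were separate in both genotypes and differed by 0.55 ± 0.12 in KO males (adjusted p = 0.0359) and 0.43 ± 0.10 in WT males (adjusted p = 0.015). Amacr, the racemase that prepares branched-chain acyl-CoAs for the cycle, differed by 0.17 and 0.30 and was not called.

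Of the auxiliary enzymes for unsaturated fatty acids, Eci2 and Ech1 were called. Eci2 moves double bonds into place. In KO males Eci2 measured 115, 144, 149, and 199 CPM on the WD, against 98.9, 92.6, 98.0, and 96.7 on the CD. In WT males it measured 113, 192, 142, and 199.8 CPM on the WD, against 88.1, 77.3, 82.8, and 77.6 on the CD. It was higher in all WD libraries of both genotypes, by 0.67 ± 0.15 in KO males (adjusted p = 0.0408) and 1.01 ± 0.17 in WT males (adjusted p = 0.00566). Ech1, a dienoyl-CoA isomerase, was called in KO males only. In KO males Ech1 measured 176, 185, 198, and 243 CPM on the WD, against 112, 150.2, 119, and 122 on the CD. The WT males had 156, 238, 158, and 217 CPM on the WD, against 158, 175, 143, and 179 on the CD. The WT groups overlapped, and the log2 fold change was 0.69 ± 0.13 in KO males (adjusted p = 0.0236) and 0.25 ± 0.15 in WT males (adjusted p = 0.281). The difference of the diet effect between genotypes was 0.18 ± 0.16 over both sexes (adjusted p = 0.785), so a different response of the genotypes is not shown. Decr2, the peroxisomal dienoyl-CoA reductase, differed by 0.59 in KO and 0.37 in WT males without passing the test. In KO males DESeq2 with length offsets and the model of all 32 libraries did call Decr2.

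Crot transfers shortened acyl groups to carnitine for export. In KO males Crot measured 549.8, 796, 891, and 987 CPM on the WD, against 487, 709, 530.5, and 736 on the CD. Crot measured 605, 1189, 606, and 859 CPM in WT males on the WD, against 432, 365, 499.8, and 439 on the CD. Only the WT groups were separate, with a log2 fold change of 0.92 ± 0.21 (adjusted p = 0.02), against 0.41 ± 0.20 in KO males (adjusted p = 0.327). The WT call was lost without CD replicate 4 or WD replicate 4. On the CD, 3 of the 4 KO libraries were above all WT libraries. Scp2 was likewise called in WT males alone. In KO males Scp2 measured 3710.1, 5097, 4004, and 3762 CPM on the WD, against 3509, 3334, 4004, and 4072 on the CD. In WT males it measured 5188, 4704, 4537, and 4339.5 CPM on the WD, against 2652, 3605, 2867, and 3343 on the CD. The WT groups were separate and differed by 0.60 ± 0.13 (adjusted p = 0.012). With length offsets this was 0.30 ± 0.10 in edgeR (adjusted p = 0.126) and 0.29 in DESeq2 (adjusted p = 0.00592). A short transcript of Scp2, described with the sex comparison, took 12.1 ± 6.01% of its TPM on the WD and 24.6 ± 5.95% on the CD in WT males, with no overlap. In KO males its share was 19.2 ± 5.27% on the WD and 16.2 ± 9.43% on the CD, with overlap. Over all genes, log2 fold changes between diets in WT males correlated with transcript length (Spearman 0.34). Whether that bears on the share was not tested.

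α-Oxidation, which removes a carbon from phytanic acid, is represented by 2 enzymes. Hacl1, the lyase of this pathway, was the only member called lower on the WD in males. In KO males Hacl1 measured 154, 234, 156, and 238 CPM on the WD, against 362, 418, 255, and 337 on the CD. In WT males it measured 247, 234, 258, and 249.7 CPM on the WD, against 387, 292, 418, and 424 on the CD. Each WD library was below each CD library in both genotypes, with log2 fold changes of −0.79 in KO males (adjusted p = 0.0535) and −0.61 in WT males (adjusted p = 0.00899). Exons of Hacl1 overlap Btd on the opposite strand, whose counts came to 15.7% of those of Hacl1, and whether the counting used strand is not given in the sources used here. Phyh, the hydroxylase that acts before Hacl1, rose in WT males by 0.48 (adjusted p = 0.0285) and differed by 0.06 in KO males. Its call was lost when any of 6 of the 8 libraries was left out (CD replicates 1, 3, and 4 and WD replicates 1, 2, and 3) and in edgeR with length offsets.

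Outside the oxidation cycle, 2 enzymes were called in WT males. Ephx2, the soluble epoxide hydrolase, had 894, 917, 772, and 830.0 CPM on the WD, against 584, 489, 593, and 669 on the CD in WT males, and 601, 895, 658, and 729 on the WD, against 613, 635, 744, and 593 on the CD in KO males. The WT groups were separate and the KO groups overlapped, with log2 fold changes of 0.56 ± 0.12 (adjusted p = 0.0107) and 0.17 ± 0.15 (adjusted p = 0.613). Lonp2, the peroxisomal Lon protease, had 387, 362, 346, and 387 CPM on the WD, against 265, 248, 265, and 265 on the CD in WT males, and 293, 431, 391, and 376 on the WD, against 297, 270.2, 264, and 242 on the CD in KO males. It differed by 0.52 ± 0.09 in WT males (adjusted p = 0.0053) and 0.49 ± 0.14 in KO males (adjusted p = 0.0872), where 1 WD library lay within the CD range. DESeq2 with length offsets and the model of all 32 libraries called Lonp2 in KO males. The enzymes that produce or remove hydrogen peroxide from other substrates did not pass the test in males. These are catalase, glycolate oxidase (Hao1), urate oxidase, and the pipecolic acid and sarcosine oxidase Pipox, together with the aminotransferase Agxt, and their log2 fold changes lay between −0.39 (Agxt in KO males) and 0.15 (Cat in WT males).

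Among the 13 peroxins, Pex11a had the largest log2 fold change in males. PEX11 proteins elongate the peroxisome membrane before division. In KO males Pex11a measured 63.6, 69.2, 54.4, and 85.5 CPM on the WD, against 43.3, 42.5, 40.2, and 36.5 on the CD. The WT males had 50.8, 69.8, 44.2, and 99.8 CPM on the WD, against 49.9, 44.5, 35.8, and 44.0 on the CD. The KO groups were separate, with a log2 fold change of 0.76 ± 0.13 (adjusted p = 0.014), whereas 1 WT library on the WD lay within the CD range and the WT difference of 0.62 ± 0.25 was not called (adjusted p = 0.145). Pex3, a receptor for peroxisomal membrane proteins, rose by 0.42 ± 0.10 in WT males (adjusted p = 0.0211) and differed by 0.06 in KO males. This call was lost without CD replicate 3 or WD replicate 4, and exons of Pex3 overlap Adat2 on the opposite strand, whose counts came to 9.40% of those of Pex3. The other 11 peroxins were not called in males, with log2 fold changes from −0.37 (Pex10 in WT males) to 0.35 (Pex26 in KO males). They include both import receptors (Pex5 and Pex7), the docking proteins (Pex13 and Pex14), the ubiquitin ligases (Pex2 and Pex10), and the ATPase Pex6 with its anchor Pex26. Neither transporter and neither Pxmp protein was called in males by edgeR. Abcd2 differed by −1.13 ± 0.46 in WT males (adjusted p = 0.159), which DESeq2 with length offsets called, and by −0.12 in KO males. Pecr, a reductase of enoyl-CoAs, differed by −0.02 in WT and −0.22 in KO males.

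**Figure D2:**
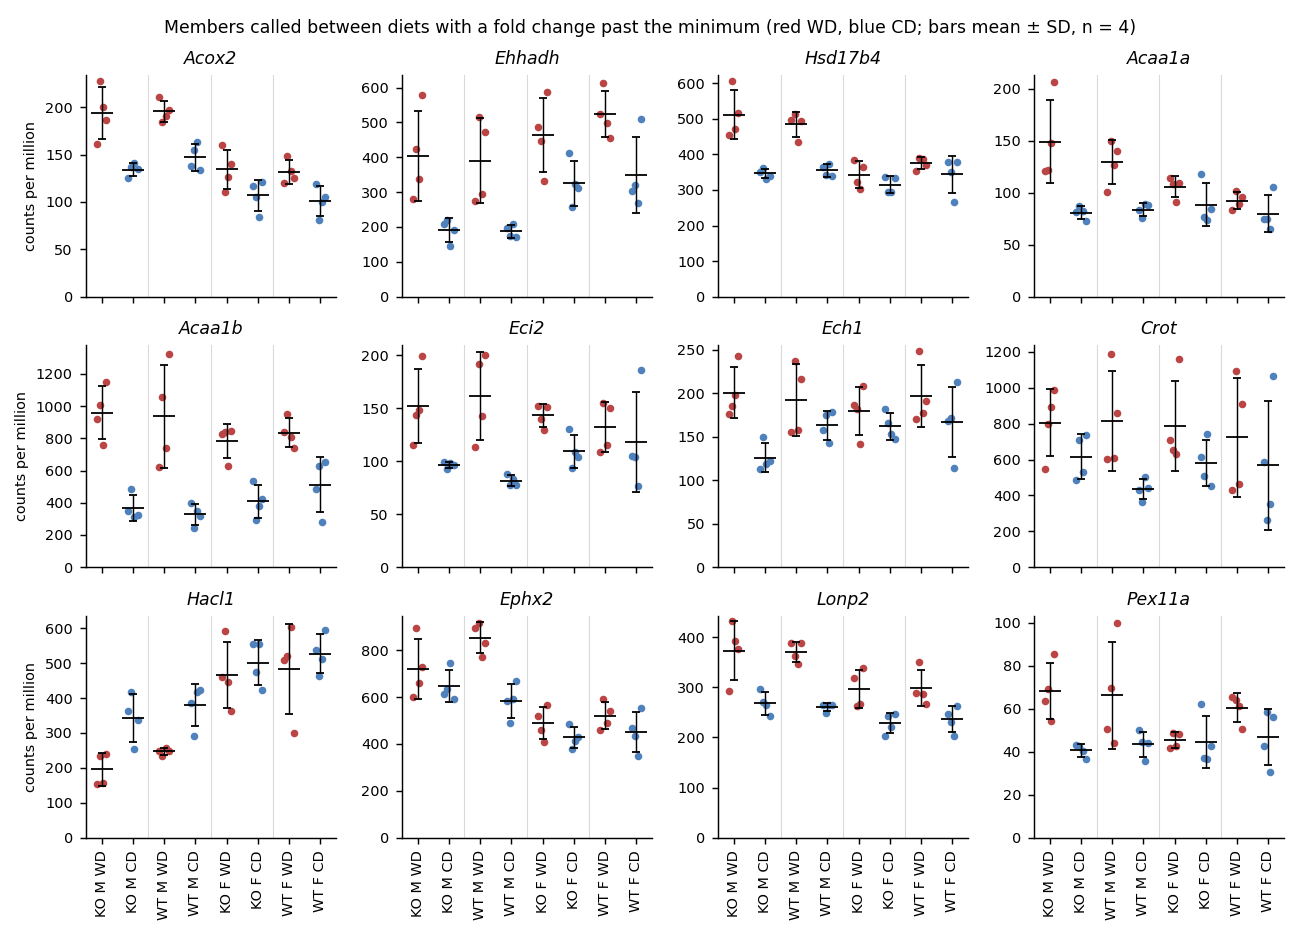
Level in CPM in each library (points) with mean ± SD of 4 mice for the members called between diets in at least 1 group with a log2 fold change of 0.5 or more, other than Scp2. WD groups (red) stand left of CD groups (blue). For Acaa1b all 16 WD libraries are above the CD libraries of their own sex and genotype.

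**Figure D3:**
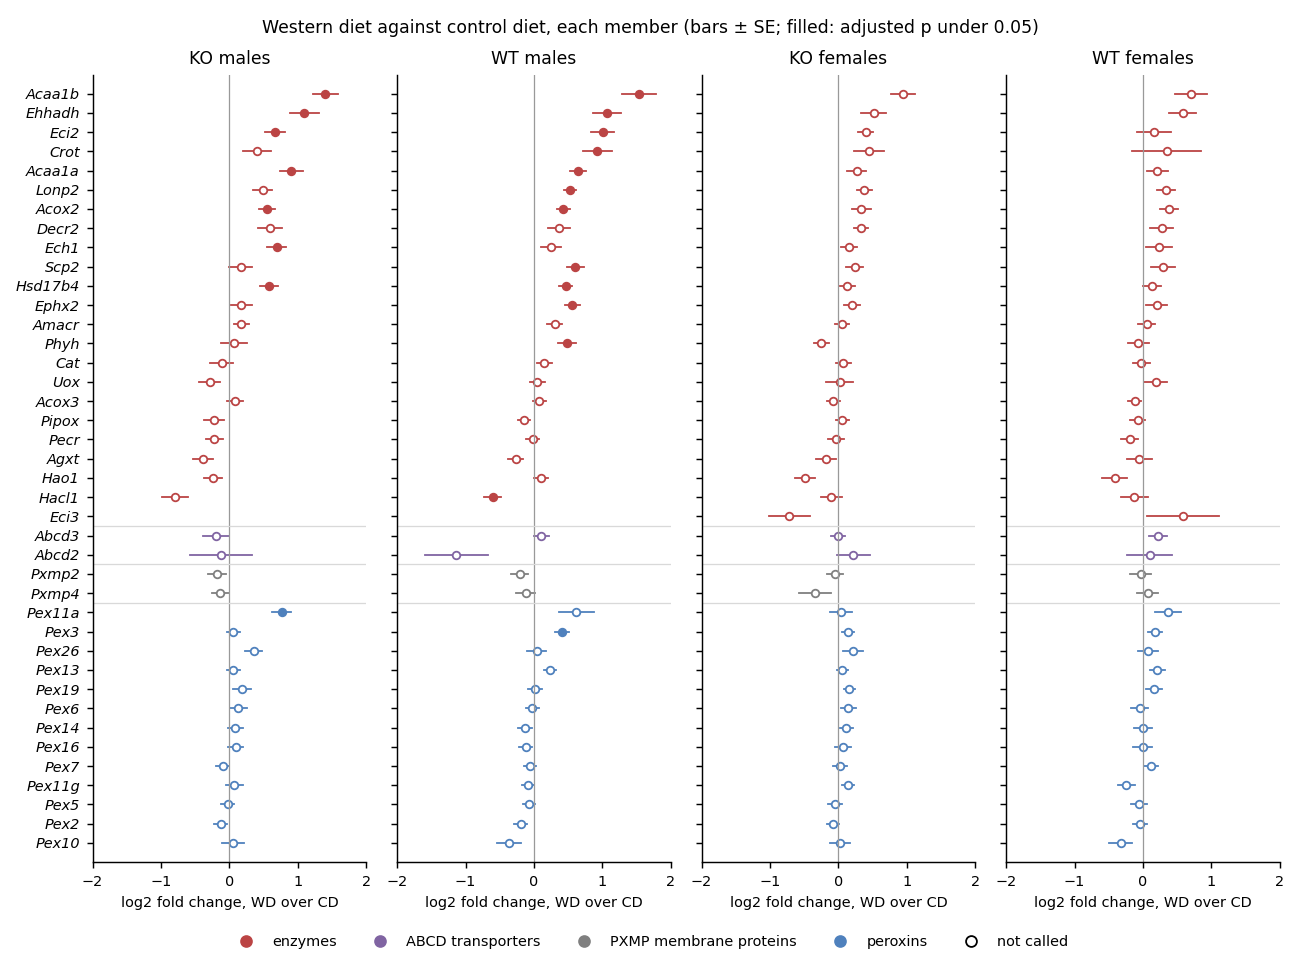
Log2 fold change, WD over CD, with its SE for each member in KO males, WT males, KO females, and WT females. Filled points passed an adjusted p of 0.05. The filled points number 8, 13, 0, and 0, and nearly all are enzymes (red).

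In females no member was called, in either genotype. In KO females 9 of 40 members had an unadjusted p under 0.05, as did 1268 of all 12840 genes tested. At the adjusted threshold 0.125% of all genes were called. In WT females 5 of 40 members had an unadjusted p under 0.05, as did 1078 of all 12737 genes tested. Here 0.0785% of all genes were called. DESeq2 with length offsets called 2 members in KO females (Acaa1b and Lonp2) and 0 in WT females. Without CD replicate 1, edgeR called 1 member in KO females. The median log2 fold change of the enzymes was 0.13 in KO and 0.19 in WT females. On the WD 4 of 40 members were higher without overlap in KO females, as were 2.55% of all genes. In WT females 5 of 40 were, against 2.59% of all genes.

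For Acaa1b the diets were again separate. In KO females it measured 828, 841, 628, and 843 CPM on the WD, against 536, 294, 381, and 424 on the CD. In WT females it measured 839, 954, 807, and 743 CPM on the WD, against 486, 629.6, 278, and 656 on the CD. Neither pair overlapped, with log2 fold changes of 0.95 ± 0.17 (adjusted p = 0.076) and 0.70 ± 0.23 (adjusted p = 0.466). Acaa1b was the 1 member whose WD libraries were all above the CD libraries in each of the 4 sex and genotype groups, as were 0.126% of all genes, and no member was below in all 4, against 0.0369% of all genes. Without the libraries with acinar transcripts its difference in WT females was 1.18 ± 0.24 (adjusted p = 0.119).

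Ehhadh measured 488, 446, 331, and 588 CPM on the WD, against 412, 256, 323, and 312 on the CD in KO females, and 525, 614, 498, and 457 on the WD, against 302, 320.1, 268, and 509.9 on the CD in WT females. Both pairs overlapped, and the log2 fold changes were 0.51 ± 0.18 and 0.58 ± 0.20 (adjusted p = 0.377 and 0.477). Without the acinar libraries Ehhadh in WT females was called, at 0.94 ± 0.14 (adjusted p = 0.0316, edgeR). In females Lonp2 averaged 296 ± 37.5 CPM on the WD and 229 ± 20.3 on the CD in KO mice, and 298 ± 35.8 on the WD and 236 ± 25.8 on the CD in WT mice. The WD libraries of Lonp2 were above the CD libraries in both genotypes of females, but its differences of 0.38 and 0.33 were not called. For Pex11a the values were 0.04 in KO and 0.36 in WT females, and without the acinar libraries −0.05 ± 0.16 and 0.80 ± 0.14 (adjusted p = 0.943 and 0.0698).

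A direct test of the diet effect in females minus that in males, over both genotypes, called 0 of 40 members in edgeR, where 0.244% of all genes were called. An unadjusted p under 0.05 was found for 9 members and for 1591 of all 13539 genes. DESeq2 with length offsets called Hsd17b4, and edgeR called 1 member without WT female replicate 3 on the CD. The estimates were below 0 for Acaa1b (−0.63 ± 0.23, adjusted p = 0.292), Eci2 (−0.54 ± 0.19, adjusted p = 0.268), Ehhadh (−0.52 ± 0.23, adjusted p = 0.363), Acaa1a (−0.52 ± 0.16, adjusted p = 0.178), and Hsd17b4 (−0.38 ± 0.11, adjusted p = 0.131), and above 0 for Hacl1 (0.60 ± 0.18, adjusted p = 0.185). A smaller response of these genes in females is therefore not shown by this test.

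Averaged over the 4 sex and genotype groups in a model of all 32 libraries, the WD changed 19 of 40 members, 15 higher and 4 lower, where 19.4% of all genes were called and 8.63% were called higher. The enzymes accounted for 12 of the higher members: Acaa1b (1.14 ± 0.12, adjusted p = 1.13e-07), Ehhadh (0.81 ± 0.11, adjusted p = 1.66e-05), Eci2 (0.55), Crot (0.52), Acaa1a (0.50), Lonp2 (0.42), Acox2 (0.41), Decr2 (0.38), Ech1 (0.32), Scp2 (0.32), Hsd17b4 (0.32), and Ephx2 (0.28). The other 3 were peroxins: Pex11a (0.44), Pex3 (0.19), and Pex13 (0.13). Pex13 was no longer called with length offsets in either tool, without a filter, with the length trend removed, without the acinar libraries, or without KO male WD replicate 2, and its exons overlap Pus10 on the opposite strand, whose counts came to 32.7% of those of Pex13. Crot lost its call in edgeR with length offsets, without a filter, and when any of 5 libraries was left out (KO female WD replicate 4, KO male WD replicate 4, WT female CD replicate 3, WT female WD replicate 2, and WT male WD replicate 2). The lower members were Hacl1 (−0.42), Hao1 (−0.27), Agxt (−0.23), and Pex2 (−0.12). Hao1 makes glyoxylate, and Agxt converts it to glycine. The call of Agxt was lost when any of 18 of the 32 libraries was left out, and that of Pex2 when any of 25 was. The median over the 23 enzymes was 0.28, that over the 13 peroxins 0.01, and that over all genes −0.01.

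Further lists give the setting of these genes. In the mean over the 4 groups, 8.63% of all genes were called higher and 10.8% lower on the WD. Of 44 other peroxisomal genes, 41 were tested, and 12 were higher and 5 lower in that mean. Their median log2 difference was 0.03, against −0.01 over all genes. Among the other peroxisomal genes with the smallest p were Aldh3a2, a fatty aldehyde dehydrogenase (1.15 on the log2 scale), Hsdl2 (0.54), and the mevalonate pathway enzyme Pmvk (−1.54). Of 20 other PPARα targets, 9 were higher and 1 lower. Those with the smallest p were Acadm (0.51), Vnn1 (1.35), Acot2 (1.02), and Slc25a20 (0.35). The median over these 20 targets was 0.33.

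No member was called between KO and WT mice by edgeR. By the same pairwise test Nudt7 itself was called only in females on the CD (−2.45 ± 0.27, adjusted p = 0.0159). It was not called in males on the WD (−2.55, adjusted p = 0.317) or the CD (−1.77, adjusted p = 0.495). Nor was it called in females on the WD (−1.84, adjusted p = 0.315), though it was in the mean (−2.16, adjusted p = 1.54e-06). A count of 0 in single pairs therefore does not show that the members were unchanged. In KO against WT mice, 0 of 39 members were called in males on the WD (unadjusted p under 0.05 for 2) and on the CD (for 3), and 0 of 40 in females on the WD (for 3) and on the CD (for 1). DESeq2 with length offsets called Hao1 in males on the WD and no other member. The background was as low, with 0.0162%, 0.00814%, 0.0156%, and 0.0314% of all genes called in males on the WD, males on the CD, females on the WD, and females on the CD. In the same order, 1194 of 12319, 1197 of 12289, 981 of 12824, and 876 of 12753 genes had an unadjusted p under 0.05. In the mean over the 4 sex and diet groups 0 of 40 members and 0.0886% of all genes were called, and DESeq2 called no member. In edgeR 1 member (Pex5) had an unadjusted p under 0.05, as did 1231 of all 13539 genes. Leaving out Eci3, the 39 mean differences lay between −0.15 (Hacl1) and 0.16 (Crot) on the log2 scale, with SE from 0.04 to 0.21 and a median SE of 0.07. Within single groups the differences ranged more widely, as for Crot in males on the CD (0.51 ± 0.15, adjusted p = 0.495). The diet effect in KO minus that in WT mice called 0 of 40 members and 0% of all genes in edgeR, and 0 members in DESeq2. In edgeR 3 members (Pex3, Pex10, and Pex11g) had an unadjusted p under 0.05, as did 1141 of all 13539 genes.

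**Figure D4:**
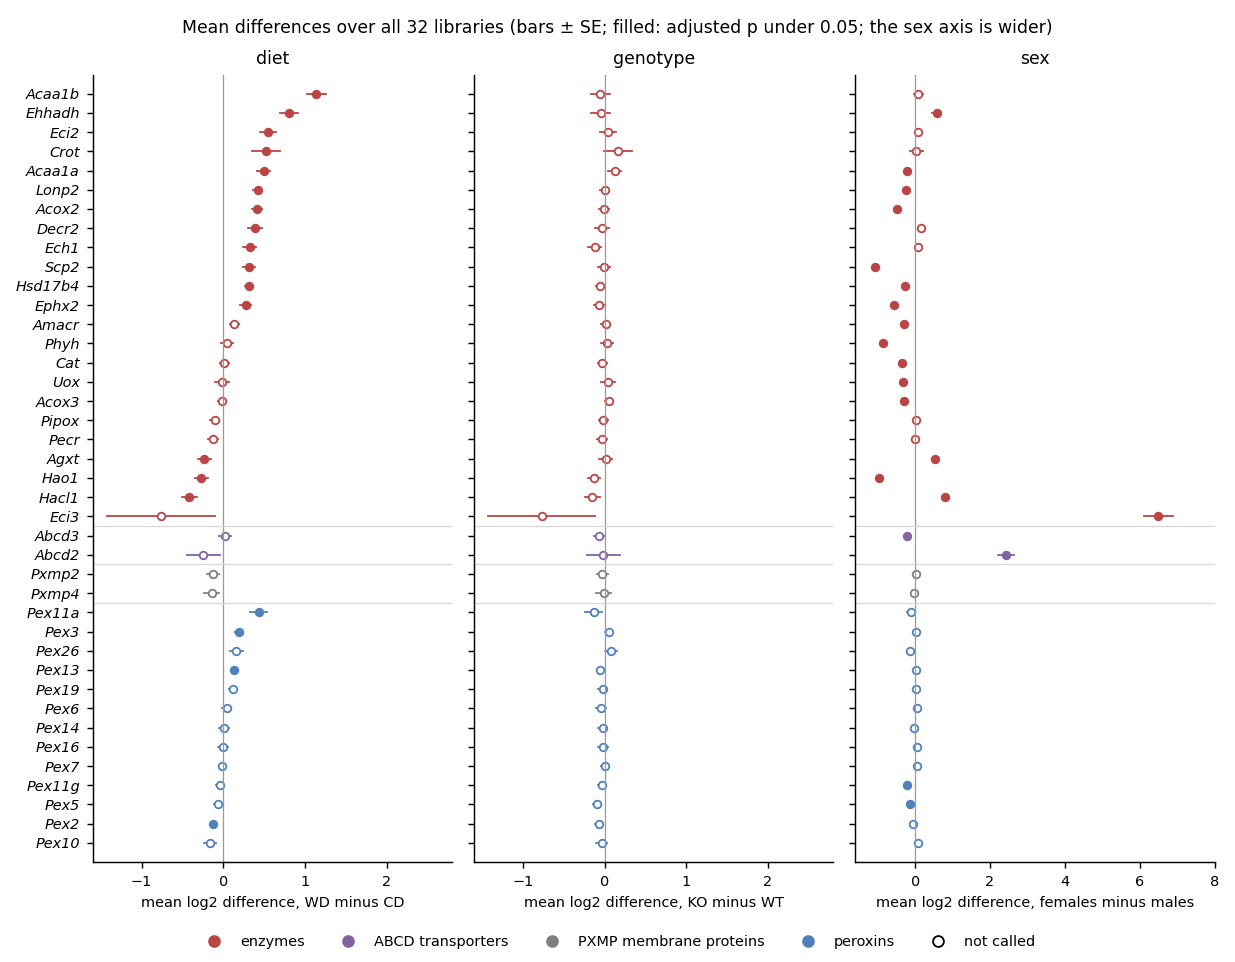
Mean log2 difference with its SE for each member, for diet (WD minus CD), genotype (KO minus WT), and sex (females minus males), over all 32 libraries. Filled points passed an adjusted p of 0.05; they number 19, 0, and 20. Eci3 lies at 6.50 on the sex axis, a fitted value that depends on the prior count, since male libraries held almost no counts.

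Females and males were compared within each genotype and diet. In the mean of females minus males over the 4 genotype and diet groups, 20 of 40 members were called, 5 higher and 15 lower in females, where 31.6% of all genes were called and 15.6% were called lower. Eci3 is 1 of the higher members here and in each pair below. It passed the filter of 10 counts in 4 libraries only through females, so its calls follow in part from that selection. By genotype and diet, females differed from males in 12 members in KO mice on the WD (4 higher; 9.66% of all genes called), 14 in WT mice on the WD (3 higher; 9.64% of all genes), 7 in KO mice on the CD (4 higher; 6.66% of all genes), and 5 in WT mice on the CD (2 higher; 2.24% of all genes). Enzymes were 16 of the 20 in the mean, transporters 2, and peroxins 2 (Pex11g and Pex5, at −0.23 and −0.15). With length offsets the difference of Pex11g was −0.36 in edgeR and −0.37 in DESeq2. The median of the enzymes was −0.23, that of the peroxins 0.02, and that of all genes 0.02. The counts rested in part on single mice. On the WD, 6 members were called in KO mice without female replicate 2 or 3, and 9, 8, and 8 in WT mice without female replicate 1, 2, or 3. On the CD, 4 were called in KO mice without female replicate 2. In WT mice on the CD 3 were called without female replicate 1 or 3 and 2 without male replicate 2, 3, or 4. Without any 1 female library, Eci3 missed the filter and was not tested. Its missing call in the counts without a female library therefore reflects the filter, not a mouse.

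Of the 40 members, 3 were higher in all female libraries than in all male libraries of the same genotype and diet in each of the 4 comparisons (Eci3, Abcd2, and Hacl1), as were 0.886% of all genes. For Eci3 this follows in part from the same filter. Another 4 were lower in all (Scp2, Hao1, Phyh, and Acox2), as were 1.07% of all genes.

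Nearly all counts of Eci3 came from female livers. On the WD, Eci3 measured 5.41, 5.35, 4.69, and 3.89 CPM in KO females, against 0, 0, 0, and 0.0839 in KO males, and 11.0, 5.08, 11.3, and 2.27 in WT females, against 0, 0, 0.0961, and 0.0944 in WT males. Values of Eci3 on the CD were 8.02, 9.49, 10.9, and 3.39 CPM in KO females, against 0.0761, 0, 0.0823, and 0 in KO males, and 4.89, 4.73, 7.68, and 2.50 in WT females, against 0.780, 0.0733, 0, and 0.0949 in WT males. In counts, males had 0 in 8 libraries, 1 in 7 libraries, and 9 in WT replicate 1 on the CD, whereas the 16 female libraries had 35 to 180. The ratio of female to male levels was 245 (95% counting interval 43.6–9699) in KO mice and 153 (42.2–1269.7) in WT mice on the WD. It was 190.4 (52.4–1577) in KO mice and 20.8 (11.4–42.2) in WT mice on the CD. These intervals are exact and cover counting error only. The main transcript of Eci3 shares 9.40% of its stretches of 50 bases with Eci2, which was at 77.3 CPM or more in males.

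Abcd2, a transporter of very-long-chain acyl-CoAs and a close relative of the adrenoleukodystrophy protein, was several times higher in females. On the WD, Abcd2 measured 61.3, 94.1, 90.2, and 61.4 CPM in KO females, against 11.0, 13.7, 5.80, and 27.3 in KO males, and 89.6, 104, 87.5, and 55.7 in WT females, against 2.96, 12.7, 9.03, and 11.0 in WT males. Values of Abcd2 on the CD were 44.9, 58.7, 92.8, and 67.8 CPM in KO females, against 19.8, 18.3, 9.55, and 15.8 in KO males, and 73.0, 42.3, 68.3, and 131 in WT females, against 29.3, 23.1, 17.3, and 10.5 in WT males. The female and male ranges were apart in each pair, and the mean log2 difference was 2.41 ± 0.21 (adjusted p = 2.06e-09, edgeR). The difference was called in all pairs but WT mice on the CD (1.97, adjusted p = 0.069). Abcd3, by contrast, was slightly lower in females, at −0.22 ± 0.07 (adjusted p = 0.0158), a call lost without the acinar libraries.

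Hacl1 was higher in females. On the WD it measured 461, 592, 446, and 362 CPM in KO and 509, 521, 603, and 299 CPM in WT females, which are all above the WD males given before. On the CD the values were 554, 474, 554, and 422 CPM in KO and 536, 463, 512, and 596 CPM in WT females. The mean log2 difference was 0.81 ± 0.09 (adjusted p = 5.45e-08). The difference was called on the WD (1.24 in KO and 0.98 in WT mice) and not on the CD (0.55 and 0.48). On the CD, DESeq2 with length offsets called Hacl1 in both genotypes. In KO mice on the CD it was also called in edgeR with length offsets, with the length trend removed, and in the model of all 32 libraries. RLE size factors, no filter, and the replicate block gave no call there. The other members higher in females were Ehhadh (0.57 ± 0.11, adjusted p = 0.00026) and Agxt (0.52 ± 0.08, adjusted p = 9.97e-06). For Ehhadh the sex difference was called on the CD (0.77 in KO and 0.91 in WT mice) and not on the WD (0.19 and 0.44). Its WT call on the CD was lost when any of the 4 male libraries was left out, and its KO call without male replicate 4. The direct test of the diet effect in females minus males called neither Hacl1 nor Ehhadh in edgeR. A sex difference that depends on the diet is therefore not shown for them.

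Phyh and Hao1 were lower in females. On the WD, Phyh measured 969.7, 768, 794, and 985 CPM in KO females, against 1193, 1853, 1600.0, and 1607 in KO males, and 704, 859, 709.8, and 1002 in WT females, against 2197, 2156, 1907, and 1739 in WT males. Values of Phyh on the CD were 1078, 1000.2, 1026, and 1103 CPM in KO females, against 1162, 1370.0, 1581, and 1936 in KO males, and 982, 714, 841, and 892 in WT females, against 1184, 1645, 1452, and 1496 in WT males. None of the pairs overlapped, and the mean log2 difference was −0.85 ± 0.08 (adjusted p = 4.07e-10). Phyh and Hacl1, successive enzymes of phytanic acid breakdown, thus differed between the sexes in opposite directions. On the WD, Hao1 measured 127, 103, 101, and 144 CPM in KO females, against 239, 251, 238, and 196 in KO males, and 93.8, 131, 97.2, and 167 in WT females, against 342, 301, 305, and 293 in WT males. Values of Hao1 on the CD were 178, 193, 127, and 173 CPM in KO females, against 241, 252, 299, and 309 in KO males, and 172, 166, 138, and 174 in WT females, against 257, 322, 273, and 319 in WT males. Hao1 was likewise separate in all 4 pairs, at −0.97 ± 0.08 (adjusted p = 2.79e-11), while Agxt, which removes the glyoxylate that Hao1 produces, was higher in females.

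Scp2 was lower in females. On the WD, Scp2 measured 2093, 1814, 1813, and 2146 CPM in KO females, against 3710.1, 5097, 4004, and 3762 in KO males, and 1787, 2436, 1953, and 2200.1 in WT females, against 5188, 4704, 4537, and 4339.5 in WT males. Values of Scp2 on the CD were 1774, 1738, 1318, and 1866 CPM in KO females, against 3509, 3334, 4004, and 4072 in KO males, and 1937, 1639, 1224, and 2031 in WT females, against 2652, 3605, 2867, and 3343 in WT males. All pairs were separate, and the mean log2 difference was −1.07 ± 0.07 (adjusted p = 1.22e-12). The gene gives rise to a long transcript, whose protein joins a thiolase to sterol carrier protein 2, and to shorter ones from an internal start. The files hold estimates for single transcripts. The long transcript (2640 bases) averaged 833 ± 75.1 TPM in KO females, against 2034 ± 185 TPM in KO males, and 916 ± 112 TPM in WT females, against 2060.1 ± 69.3 TPM in WT males on the WD. On the CD its averages were 700.3 ± 73.0 TPM in KO females, against 1705 ± 209.8 TPM in KO males, and 727 ± 223 TPM in WT females, against 1338 ± 234 TPM in WT males. It was lower in females in all 4 pairs. The short transcript (772 bases) did not follow. It averaged 732 ± 83.0 TPM in KO females, against 512 ± 155 TPM in KO males, and 785 ± 112 TPM in WT females, against 306 ± 159 TPM in WT males on the WD. For the CD the averages were 556 ± 77.8 TPM in KO females, against 358 ± 225 TPM in KO males, and 612 ± 53.5 TPM in WT females, against 491 ± 103 TPM in WT males.

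The share of the short transcript in the TPM of Scp2 was 38.1 ± 2.39% in KO females, against 19.2 ± 5.27% in KO males, and 38.0 ± 2.04% in WT females, against 12.1 ± 6.01% in WT males on the WD. On the CD it was 36.4 ± 1.12% in KO females, against 16.2 ± 9.43% in KO males, and 38.8 ± 4.84% in WT females, against 24.6 ± 5.95% in WT males. Female and male libraries were separate in all 4 pairs (exact permutation p = 0.0286 each, two-sided, the smallest that 4 against 4 can give; 0.0457 after adjustment over 8 tests). For the level of the short transcript itself, the adjusted exact permutation p was 0.0762 in KO and 0.0457 in WT mice on the WD, and 0.143 in KO and 0.131 in WT mice on the CD. These tests were chosen after the transcript values had been seen. With length offsets the mean difference of the gene between the sexes was −0.57 ± 0.06 (adjusted p = 1.64e-08, edgeR), which is smaller in size than the differences of Phyh and Hao1 in that fit. The pseudogene Scp2-ps2 holds 41.4% of the 50-base stretches of the long transcript.

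**Figure D5:**
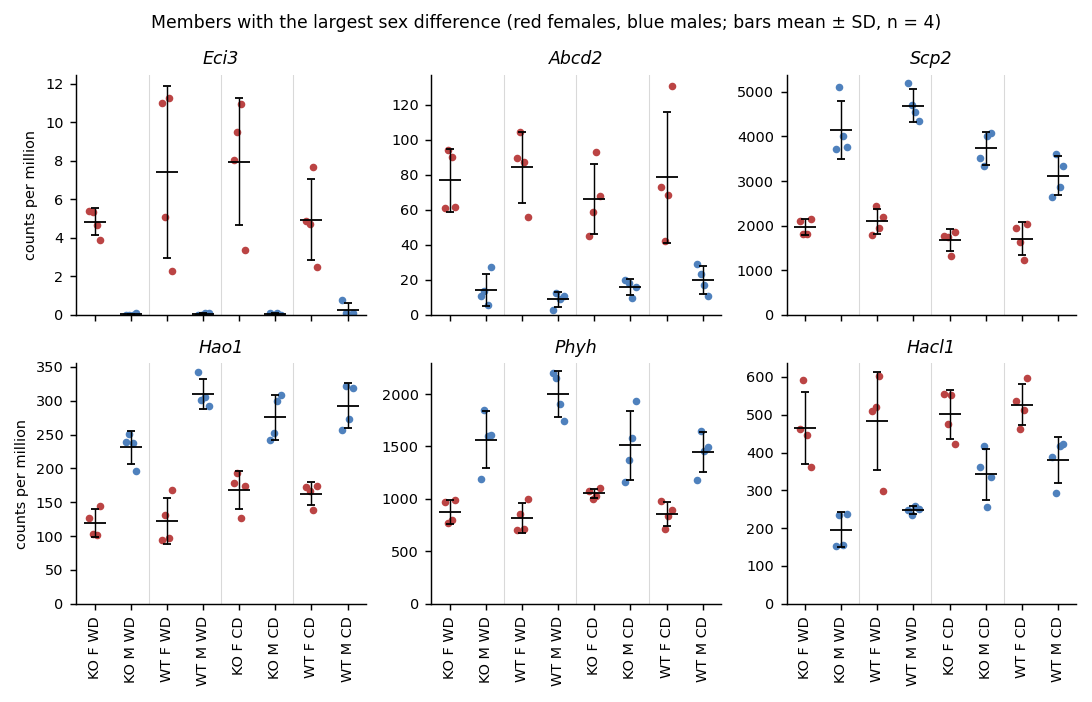
Level in CPM in each library (points) with mean ± SD of 4 mice for the 6 members with the largest mean sex difference; females (red) stand left of males (blue) of the same genotype and diet. Eci3 and Abcd2 are low in males, whereas Scp2, Hao1, and Phyh are lower in females in all 4 pairs.

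The remaining members lower in females in the mean were Ephx2 (−0.56 ± 0.07), Acox2 (−0.49 ± 0.06), Cat (−0.36 ± 0.06), Uox (−0.33 ± 0.08), Amacr (−0.31 ± 0.06), Acox3 (−0.30 ± 0.05), Hsd17b4 (−0.28 ± 0.05), Lonp2 (−0.26 ± 0.06), and Acaa1a (−0.23 ± 0.08), whose call was lost without KO male WD replicate 4. Acox2, Acox3, Amacr, and Hsd17b4 act on branched-chain acyl-CoAs, and Cat and Uox are the catalase and the urate oxidase. Acaa1b, Eci2, Ech1, Decr2, Crot, Pecr, and Pipox were not called between the sexes in the mean, with differences from −0.01 to 0.15. Nor were Pxmp2, Pxmp4, and the other 11 peroxins, with differences from −0.13 to 0.07. Within KO mice on the WD, Pex11a was called lower in females (−0.59 ± 0.13, adjusted p = 0.0153).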

How the data were processed

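Liver mRNA of 32 mice (4 per group) was sequenced as 50-base paired-end reads. Per the labels and the study's methods, the authors quantified reads against GRCm38 transcripts of Ensembl with Salmon 1.3.0 and deposited, for each transcript, the estimated count and the TPM value with its length and effective length; their own tests used DESeq2 1.28.1. The estimated counts were summed over the transcripts of each gene (115973 of 117135 transcripts found in GENCODE vM21) and rounded to whole numbers. TPM values were summed in the same way and used for levels only. No 2 libraries of a group were copies of each other.

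The test was run on genes that reached 10 counts in 4 or more libraries, using edgeR 4.0.16 (TMM, quasi-likelihood F test) in R 4.3.3, by pairs of groups or, for mean effects and their differences, in a model of all 32 libraries. The Benjamini–Hochberg adjustment covered all genes tested, at a threshold of 0.05. Eci3 failed the filter in comparisons of males alone and elsewhere passed it only through female libraries. CPM values use the TMM factors of all libraries. Mice were labelled as separate animals. Python 3.11.15, SciPy 1.17.1, and matplotlib 3.10.9 were used for exact tests and figures. The procedure was tested on simulated data. Alternatives were RLE size factors, DESeq2 1.42.0 and edgeR with length offsets, no filter, a block for the replicate number, the 32-library model for pairs of groups, and omitting single libraries in turn. Removal of each library's length trend was added after seeing the data, as were the fits without the 4 libraries with acinar transcripts, whose 15 markers summed to at least 10 times the median.

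The members and lists were chosen with earlier results of these data known. Library values are given for members called in at least 1 of the 4 diet comparisons with a log2 fold change of 0.5 or more in size, for members called in the mean genotype effect, and for the 6 called members with the largest mean sex difference. Of the other lists, the 4 genes with the smallest p in the mean diet effect are named, other than 1 that is not reported here.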

Additional observations from a re-analysis of the deposited data

Results flagged for a closer look

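Among the 16 members with library values other than Eci3, in 128 groups of 4 mice, 3 libraries lay far from the rest of their group (by Dixon's ratio of gap to range, which chance carries past its 95% limit in about 1 in 20 groups). KO female replicate 3 on the WD had 628 CPM of Acaa1b, against 828 to 843 CPM in the other 3 libraries. KO female replicate 4 on the WD had 1159 CPM of Crot, against 631 to 709.8 CPM in the others. WT male replicate 2 on the CD had 248 CPM of Lonp2, against 265 CPM in the others, a small gap in a tight group.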

How the results depend on the processing

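Of 2934 refits of 131 values of single members, 2690 kept their direction and side of the threshold, 224 lost the call, 14 gained it, and 6 changed sign; the 6 belong to values that were not called. Hacl1 in WT females turned to 0.0581 on the log2 scale without the acinar libraries and ranged from −0.2452 to 0.0512 with each library left out, and in KO females from −0.2367 to 0.0001. Pex11a in KO females turned to −0.0486 without the acinar libraries and ranged from −0.0486 to 0.2416 with each library left out. The count of members called between diets in WT males was 7 in edgeR and 13 in DESeq2 with length offsets. In females between diets it was 1 without the acinar libraries in WT mice, and 2 in DESeq2 with length offsets and 1 without a filter in KO mice. DESeq2 with length offsets called 1 member between genotypes in males on the WD and 1 for the diet effect in females minus males. Between the sexes on the CD, WT mice gave 11 with DESeq2 and length offsets, 8 in the model of all 32 libraries, and 8 with the length trend removed, and KO mice gave 12 with DESeq2 and length offsets. Why these counts moved was not tested. Leaving out each library gave 11 to 13 members between diets in WT males, 2 to 9 in KO males, 0 in WT females, and 0 to 1 in KO females; 6 to 14 (KO) and 8 to 13 (WT) between the sexes on the WD, and 4 to 8 (KO) and 2 to 6 (WT) on the CD; 16 to 19 for the mean diet effect, 19 to 20 for the mean sex effect, and 0 to 1 for the diet effect in females minus males. Eci3 missed the filter, and so was not tested, when a female library was left out of a sex pair. Replicate numbers do not pair the mice: deviations from the group mean correlated at −0.00445 between samples of the same number and 0.00192 between others on average, and in no comparison was every pair above 0.1. With the replicate number as a block, 9 members were called between diets in WT males, 6 in KO males, and 3 between the sexes in WT mice on the CD. With 4 mice per group and 10140048 to 15825078 counts per library, small differences of low genes such as Pex10 and Eci3 are the least certain.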
